A study of Mus musculus with 4 samples.

Results

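The genes described here are 9 matrix metalloproteinases, Mmp2, Mmp3, Mmp9, Mmp10, Mmp11, Mmp12, Mmp13, Mmp14 and Mmp19, in cultured mouse pancreatic fibroblasts. They were taken by symbol from the 38921 gene rows that the 4 deposited tables share, and each of the 9 symbols had a single row. Poly-A RNA was sequenced from 2 libraries of KPC fibroblasts and 2 libraries of wild type fibroblasts, called KPC 1, KPC 2, wild type 1 and wild type 2 below. KPC mice are a pancreatic cancer model in which Cre switches on tumour-driving alleles in the pancreatic epithelium. The labels give the genotype only as KPC or wild type, the tissue as pancreas and the strain as mixed, and state no age, allele or number of animals. All 4 cultures came from a gravity separation protocol and were grown in DMEM medium with 10% fetal bovine serum at 37 °C and 7% CO2. The comparison asks how metalloproteinase expression differs between fibroblasts grown from a KPC pancreas and those grown from a wild type pancreas.

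Matrix metalloproteinases are zinc-dependent proteases that cut collagens, elastin, laminins and other proteins of the extracellular matrix. Most are secreted as inactive proenzymes, become active when the propeptide is removed, and are held in check by tissue inhibitors (TIMPs). Fibroblasts, macrophages and epithelial cells each make a partly different set, and several of the genes are induced by inflammatory cytokines through AP-1, a dimer of Fos and Jun proteins that binds short sites in their promoters.

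Mmp13, Mmp12, Mmp3 and Mmp10 lie in that order on chromosome 9, in a run of 10 metalloproteinase rows that spans 427 kb (mm10, chr9:7272514-7699585). RefSeq promoter entries (build GRCm38.p6) were found for 6 of the 9 members, with 2 starts for Mmp12, and none were found for Mmp2, Mmp9 and Mmp19. The 250 bases before each start were searched on both strands for TGANTCA (AP-1), TATAAA (the TATA box) and AGGAAG (PEA3, bound by Ets factors). An AP-1 match was found before Mmp3, Mmp10, Mmp13 and the second start of Mmp12, and TGANTCA occurs in 6.75% of the 32851 mouse promoters of the same length. TATAAA was found before Mmp3, Mmp10 and Mmp13 (12.37% of all promoters), and AP-1 and TATA matches stood together in these 3 (1.21% of all promoters). AGGAAG was found before Mmp3, Mmp13, Mmp14 and the first start of Mmp12 (29.48% of all promoters). No match overlapped another. The first 4 sequences show the AP-1 match that the chromosome 9 members share, and Mmp14 is shown as a member without it. All are on the plus strand and read 5′ to 3′ up to the base before the start, with the matches in capitals.
Mmp3, chr9:7445572-7445821: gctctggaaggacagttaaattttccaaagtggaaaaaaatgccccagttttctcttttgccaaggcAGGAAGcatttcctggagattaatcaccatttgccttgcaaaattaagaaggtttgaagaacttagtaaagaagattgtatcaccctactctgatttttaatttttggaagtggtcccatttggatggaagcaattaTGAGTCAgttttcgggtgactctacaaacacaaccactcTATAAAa
Mmp10, chr9:7502092-7502341: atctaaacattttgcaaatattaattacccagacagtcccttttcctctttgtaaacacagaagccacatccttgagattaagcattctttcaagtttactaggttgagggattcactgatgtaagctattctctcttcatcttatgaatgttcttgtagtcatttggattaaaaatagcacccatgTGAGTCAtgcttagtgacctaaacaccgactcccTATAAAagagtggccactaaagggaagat
Mmp12, second start, chr9:7347124-7347373: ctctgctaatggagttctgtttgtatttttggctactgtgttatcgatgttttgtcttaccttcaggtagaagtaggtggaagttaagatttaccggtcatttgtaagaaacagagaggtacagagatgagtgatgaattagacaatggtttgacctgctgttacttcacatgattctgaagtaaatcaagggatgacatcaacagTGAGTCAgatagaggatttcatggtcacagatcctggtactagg
Mmp13, chr9:7272264-7272513: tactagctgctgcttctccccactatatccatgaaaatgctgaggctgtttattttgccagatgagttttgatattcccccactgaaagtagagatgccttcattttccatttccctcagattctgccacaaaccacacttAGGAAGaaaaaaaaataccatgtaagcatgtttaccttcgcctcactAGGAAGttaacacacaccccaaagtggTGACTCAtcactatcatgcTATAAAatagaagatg
Mmp14, chr14:54431348-54431597: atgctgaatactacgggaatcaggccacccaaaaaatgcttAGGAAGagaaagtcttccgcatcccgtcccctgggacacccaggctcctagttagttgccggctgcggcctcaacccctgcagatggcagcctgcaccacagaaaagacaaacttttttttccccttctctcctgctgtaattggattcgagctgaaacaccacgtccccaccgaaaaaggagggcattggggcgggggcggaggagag
Counted from the start, the AP-1 match began at base -46 in Mmp3, -63 in Mmp10, -44 at the second start of Mmp12 and -35 in Mmp13. The match reads TGAGTCA in the first 3 of these and TGACTCA in Mmp13. TATAAA began at base -7 in Mmp3, -29 in Mmp10 and -16 in Mmp13, and its use as a TATA box was not tested. A match is a description of the letters, not evidence that a factor binds there.

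**Figure D1:**
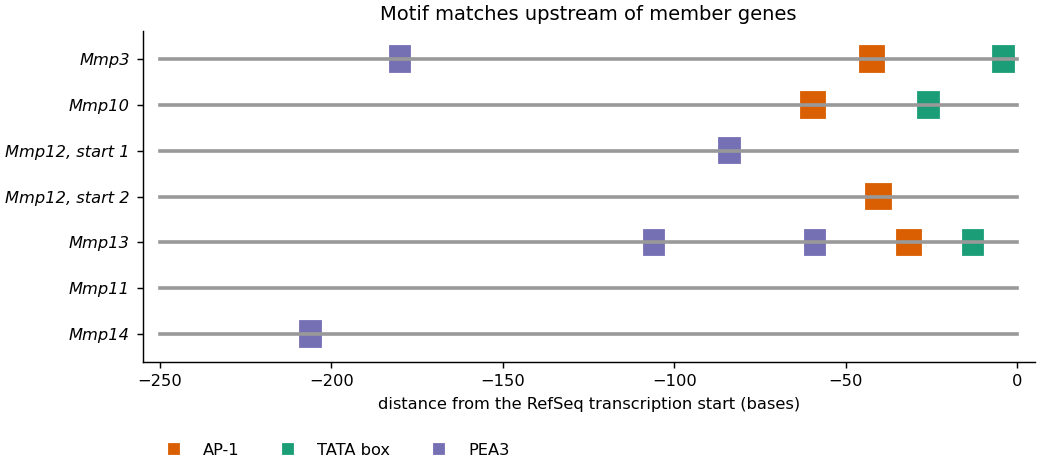
Positions of the AP-1, TATA box and PEA3 matches in the 250 bases before each RefSeq start, in bases from the start. AP-1 matches (orange) lie between -63 and -29 in Mmp3, Mmp10, Mmp13 and the second start of Mmp12, and there is none before Mmp11, Mmp14 or the first start of Mmp12.

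The libraries held 57926327 and 68312367 counts in KPC 1 and KPC 2, against 53232634 and 22302141 in wild type 1 and wild type 2, and wild type 1 stood apart from the rest. Levels are given as CPM, the counts scaled to library size with TMM factors. Across the 23046 tested rows, which are not independent, log2 CPM of wild type 1 correlated with wild type 2 at r = 0.949 and with KPC 1 and KPC 2 at 0.929 and 0.931, while the other 3 libraries correlated at 0.958 or more with each other. All 12 fibroblast markers were detected in all 4 libraries, and their summed level was 14583 and 16868 CPM in KPC against 14839 and 16357 CPM in wild type. The collagens Col1a1 and Col1a2, Acta2 and Vim made up most of that sum, with Col1a1 at 4802 and 5245 CPM in KPC against 4088 and 4716 CPM in wild type. Other markers of the list varied more, with Pdgfra at 13.8 and 48.7 CPM in KPC against 19.3 and 34.6 CPM in wild type, Dcn at 21.9 and 53.8 CPM in KPC against 14.4 and 63.1 CPM in wild type, and Lum at 1.496 and 7.34 CPM in KPC against 0.171 and 3.31 CPM in wild type. Summed endothelial markers reached 827 CPM in wild type 1 and lay between 24.8 and 53.2 CPM in the other libraries. Summed epithelial markers were at 32.0 CPM in wild type 1 and between 440 and 1199 CPM elsewhere. Insulin and other endocrine markers were high in wild type 2 alone, at a summed 944 CPM against at most 1.77 CPM in each other library. The labels call the libraries biological replicates without naming animals, so each p-value measures the spread between these libraries.

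Of the 9 members, 7 had a higher fitted level in KPC fibroblasts and 2 a lower one, but none passed edgeR's quasi-likelihood test at an adjusted p of 0.05, nor did any other row (0% of 23046), while 8.67% of rows had an unadjusted p under 0.05. The members' median log2 fold change was 0.91 (2.99 with limma voom), and the median over all tested rows was -0.01. Mmp2 was the 1 member higher at an unadjusted p under 0.05, where 4.73% of all rows were, and 0 members were lower, where 3.94% were. The KPC libraries both exceeded the wild type libraries for Mmp2, Mmp12 and Mmp14, 3 of 9 against 20.6% of all rows, and 0 members were below both, against 20.5%. DESeq2 called Mmp2 alone among the members (1 of 9, with 2.72% of all rows called and 1.44% called higher), and limma voom called no row. All 9 members passed the filter on low counts.

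For 5 members the wild type libraries lay far apart from each other. Mmp3, Mmp9, Mmp10, Mmp12 and Mmp13 were at least 4-fold higher in wild type 2 than in wild type 1, a limit chosen after the values were seen. These are 5 of 9 members, where 3.24% of all rows differed that way. The same 5 members pass an 8-fold limit, where 1.69% of rows do. Over all 9 members the median log2 difference of wild type 2 over wild type 1 was 4.06, against -0.02 over all rows. In bulk RNA, fewer cells of a type and less RNA per cell cannot be told apart.

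**Figure D2:**
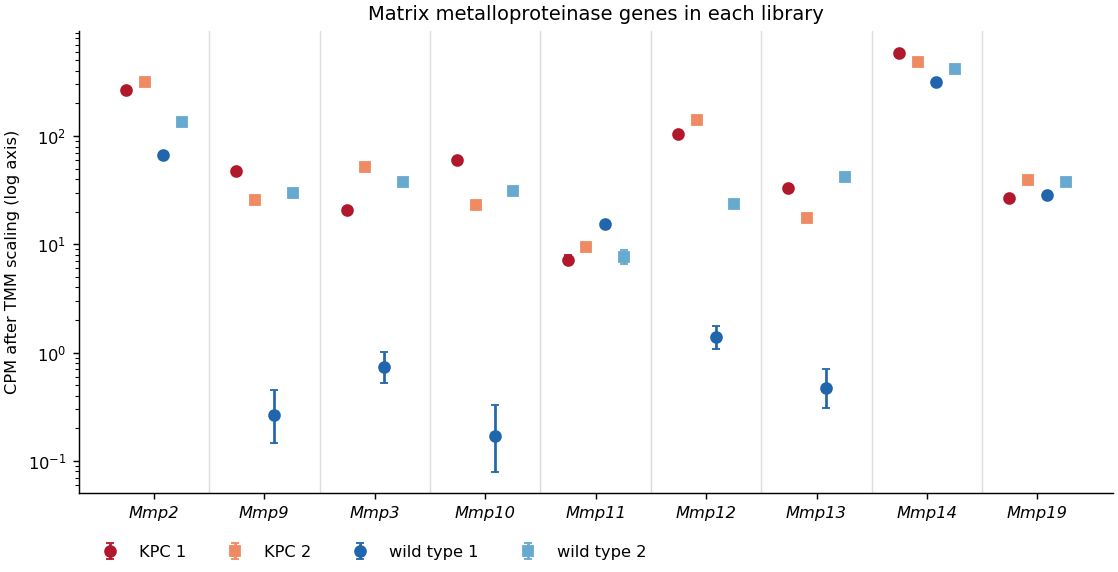
CPM after TMM scaling (log axis) of each member in KPC 1, KPC 2, wild type 1 and wild type 2, with exact 95% Poisson intervals that cover counting error only. Mmp3, Mmp9, Mmp10, Mmp12 and Mmp13 sit between 0.171 and 1.39 CPM in wild type 1 and at 17.5 CPM or more in the other 3 libraries.

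The 2 gelatinases, which cut denatured collagen and collagen IV, differed in layout. Mmp2 (chr8:92827328-92853417, plus strand) stood at 268 and 317 CPM in KPC 1 and KPC 2, against 67.4 and 134 CPM in wild type 1 and wild type 2. The groups did not overlap: the lower KPC value was above the higher wild type value. The means were 293 ± 35.0 CPM in KPC and 101 ± 47.0 CPM in wild type (SD, n = 2 each), a 2.91-fold ratio. The log2 fold change was 1.54 ± 0.37 (SE), with a 95% interval from 0.57 to 2.51 and an edgeR adjusted p of 0.412. The DESeq2 adjusted p was 0.0122. Leaving out single libraries kept Mmp2 higher in KPC, with log2 fold changes from 1.13 without wild type 1 to 2.12 without wild type 2.

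Mmp9 (chr2:164940780-164955850, plus strand), the gelatinase of neutrophils and macrophages, stood at 47.1 and 25.8 CPM in KPC 1 and KPC 2, against 0.266 and 29.6 CPM in wild type 1 and wild type 2. Wild type 1 alone was low, with 14 counts and a Poisson interval of 0.146 to 0.447 CPM, and wild type 2 lay inside the KPC range. Its log2 fold change was 1.30 ± 1.69 (SE), with an interval from -3.11 to 5.72 and an edgeR adjusted p of 0.872. With limma voom it was 4.22 (adjusted p = 0.591). Without wild type 1 it was 0.30 ± 0.40, and without wild type 2 it was 7.09 ± 0.63.

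Among the stromelysins, which cut proteoglycans, laminin and fibronectin and activate other proenzymes, Mmp3 and Mmp10 repeated this layout. Mmp3 (chr9:7445822-7455972, plus strand) stood at 20.9 and 51.3 CPM in KPC 1 and KPC 2, against 0.742 and 38.0 CPM in wild type 1 and wild type 2. Mmp10 (chr9:7502352-7510238, plus strand) stood at 60.7 and 23.1 CPM in KPC 1 and KPC 2, against 0.171 and 31.4 CPM in wild type 1 and wild type 2. In both genes wild type 2 lay between the KPC libraries, and the KPC libraries differed in opposite directions, KPC 2 being 2.45-fold above KPC 1 for Mmp3 and at 0.381 of it for Mmp10. The log2 fold changes were 0.91 ± 1.55 for Mmp3 and 1.42 ± 1.82 for Mmp10 (SE), with edgeR adjusted p of 0.910 for Mmp3 and 0.868 for Mmp10. With limma voom they were 3.12 for Mmp3 and 4.66 for Mmp10 (adjusted p = 0.626 and 0.593). Without wild type 1 they were -0.07 ± 0.54 for Mmp3 and 0.42 ± 0.59 for Mmp10. Without wild type 2 they were 5.60 ± 0.77 for Mmp3 and 7.92 ± 0.96 for Mmp10. The transcripts of these genes are alike enough to share reads: 12.01% of the 37-base words of Mmp3 and 10.6% of those of Mmp10 occur in another gene's transcripts, chiefly each other's. How the counting placed such reads is not given in the sources used here.

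Mmp11 (chr10:75923222-75932502, minus strand), called stromelysin-3 though it cleaves matrix proteins poorly and is activated inside the cell by furin, was at 15.3 CPM or less in every library. It stood at 7.22 and 9.35 CPM in KPC 1 and KPC 2, against 15.3 and 7.69 CPM in wild type 1 and wild type 2. Wild type 1 was the highest library here, and the groups overlapped. Its log2 fold change was -0.48 ± 0.39 (SE), with an interval from -1.50 to 0.54 and an edgeR adjusted p of 0.769, and it was 0.11 ± 0.30 without wild type 1.

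Mmp12 (chr9:7344381-7369499, plus strand), the macrophage metalloelastase that cuts elastin, had the largest fitted difference of the 9 in the edgeR fit to all libraries. It stood at 104 and 141 CPM in KPC 1 and KPC 2, against 1.39 and 23.7 CPM in wild type 1 and wild type 2. The groups did not overlap, and the wild type libraries were 17.1-fold apart from each other. Means were 123 ± 25.9 CPM in KPC and 12.6 ± 15.8 CPM in wild type (SD, n = 2 each). Its log2 fold change was 3.30 ± 1.28 (SE), with an interval from -0.03 to 6.64 and an edgeR adjusted p of 0.579. With limma voom it was 4.75 (adjusted p = 0.393). Without wild type 1 the change was 2.37 ± 0.29, with an adjusted p of 0.140, and without wild type 2 it was 6.46 ± 0.39 with an adjusted p of 0.0127. The interval shares 1261 bases with Mmp1b on the other strand, whose own row held 68 and 65 counts in KPC and 61 and 25 in wild type. The counting is not stated to use strand, so reads from the shared bases cannot be told apart. The Mmp12 row itself held 6137 and 9560 counts in KPC against 73 and 531 in wild type, and the 73 of wild type 1 are of the size of the Mmp1b counts. Reads of wild type 1 covered 1516 bases of the Mmp12 interval, more than the 1261 shared bases, so part of them lay outside the shared bases.

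Mmp13 (chr9:7272514-7283333, plus strand), the main interstitial collagenase of the mouse, overlapped between the groups. It stood at 33.5 and 17.5 CPM in KPC 1 and KPC 2, against 0.476 and 41.8 CPM in wild type 1 and wild type 2. Wild type 2 was the highest library and wild type 1 the lowest. Its log2 fold change was 0.28 ± 1.64 (SE), with an interval from -4.00 to 4.57 and an edgeR adjusted p of 0.981. With limma voom it was 2.99 (adjusted p = 0.661). It was -0.71 ± 0.41 without wild type 1, and 5.74 ± 0.61 without wild type 2.

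Mmp14 (chr14:54431604-54441258, plus strand), a membrane-bound collagenase that also activates the Mmp2 proenzyme at the cell surface, was higher in KPC by a smaller fold. It stood at 588 and 488 CPM in KPC 1 and KPC 2, against 316 and 413 CPM in wild type 1 and wild type 2. Both KPC libraries were higher, by 1.48-fold on average, with means of 538 ± 71.2 CPM in KPC and 364 ± 69.1 CPM in wild type (SD, n = 2 each). Its log2 fold change was 0.56 ± 0.22 (SE), with an interval from -0.01 to 1.13 and an edgeR adjusted p of 0.580, and it stayed between 0.38 and 0.77 when single libraries were left out. Timp2, the inhibitor that bridges Mmp14 and the Mmp2 proenzyme, stood at 367 and 319 CPM in KPC against 791 and 365 CPM in wild type, and did not pass (edgeR adjusted p = 0.644). It is named outside the rule for genes, after its values were seen.

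Mmp19 (chr10:128790953-128800824, plus strand), a protease of basement membrane proteins, showed no difference beyond the spread between libraries. It stood at 26.7 and 39.4 CPM in KPC 1 and KPC 2, against 28.6 and 37.7 CPM in wild type 1 and wild type 2. Its log2 fold change was -0.00 ± 0.27 (SE), with an interval from -0.72 to 0.71 and an edgeR adjusted p of 0.998. Its interval shares 789 bases with Tmem198b and all of its length with the antisense gene Gm47093, so reads from the opposite strand cannot be told apart there. The Tmem198b row held 1740 and 2463 counts in KPC and 1481 and 910 in wild type. The Mmp19 row held 1570 and 2675 counts in KPC and 1501 and 844 in wild type. The part of the Mmp19 counts from the shared bases was not tested.

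**Figure D3:**
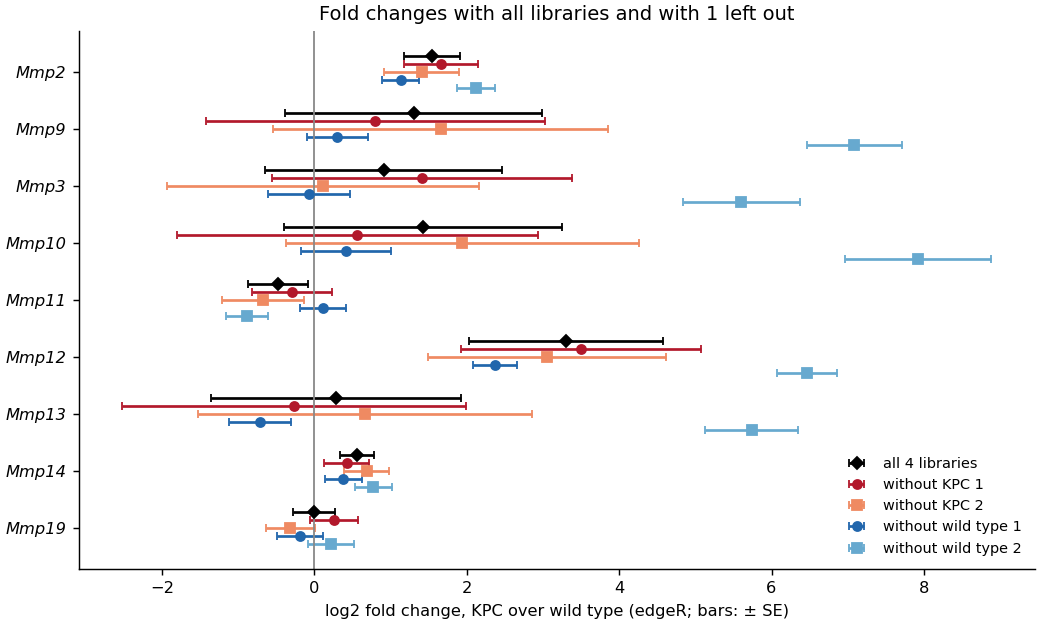
Log2 fold changes of KPC over wild type for each member (edgeR, bars are ± SE) with all 4 libraries and with each library left out. Without wild type 2 the values for Mmp3, Mmp9, Mmp10, Mmp12 and Mmp13 lie between 5.60 and 7.92, and without wild type 1 they lie between -0.71 and 2.37.

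With wild type 2 left out, edgeR called 6 members higher in KPC (Mmp2, Mmp3, Mmp9, Mmp10, Mmp12 and Mmp13), where 1.79% of all rows were called higher. With wild type 1 left out it called 0 members, where 0.0209% of rows were called in either direction. Mmp2 and Mmp12 were then the 2 members higher at an unadjusted p under 0.05, where 4.67% of rows were. In each of these fits the lone wild type library is assumed to vary like the KPC libraries.

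Levels of different genes were compared as CPM per kilobase of annotated exon. Mmp14 was the highest and Mmp2 the second in every library. In KPC the levels per kilobase averaged 123 ± 16.3 for Mmp14 and 87.9 ± 10.5 for Mmp2, and then 24.4 ± 15.4 for Mmp10, 20.1 ± 11.95 for Mmp3, 16.9 ± 3.58 for Mmp12, 10.3 ± 4.25 for Mmp9, 9.53 ± 4.23 for Mmp13, 9.47 ± 2.58 for Mmp19 and 3.22 ± 0.584 for Mmp11 (SD, n = 2 each). The KPC ranges of Mmp10, Mmp3 and Mmp12 overlapped each other, as did those of Mmp9, Mmp13 and Mmp19, so the order inside these sets is not larger than the spread. The range of Mmp3 (11.6 and 28.5) also reached those of Mmp9 (13.3 and 7.29) and Mmp13 (12.5 and 6.54). The annotated exons of Mmp12 come to 7237 bases, of which at most 3865 were covered. Per kilobase of bases covered it would stand next after Mmp2, at 27.0 and 36.5 in KPC against 0.359 and 6.14 in wild type 1 and wild type 2. In wild type 1, per kilobase of exon, Mmp14 (72.3), Mmp2 (20.2), Mmp19 (8.18) and Mmp11 (5.96) stood above the other 5 members, which were at 0.413 or less.

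The share of each gene interval covered by reads comes from the same reads as the counts and shows how far along the gene they lay. Reads covered 23.5% and 22.8% of the Mmp9 interval in KPC 1 and KPC 2, against 2.70% and 20.2% in wild type 1 and wild type 2. For Mmp10 the shares were 29.0% and 30.8% in KPC, against 3.50% and 23.3% in wild type 1 and wild type 2. The intervals include introns. In KPC 1 and KPC 2 the covered bases came to 100% and 97.2% of the annotated exon bases for Mmp9, 166% and 179% for Mmp2, where reads also lay outside annotated exons, and 50.4% and 53.4% for Mmp12. Mmp3, Mmp10, Mmp13, Mmp14 and Mmp19 were also above 100% in both KPC libraries, with Mmp10 at 133% and 141%. Mmp14 was covered over 55.6% and 48.6% of its interval in KPC against 51.0% and 35.1% in wild type, the last in the shallowest library.

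**Figure D4:**
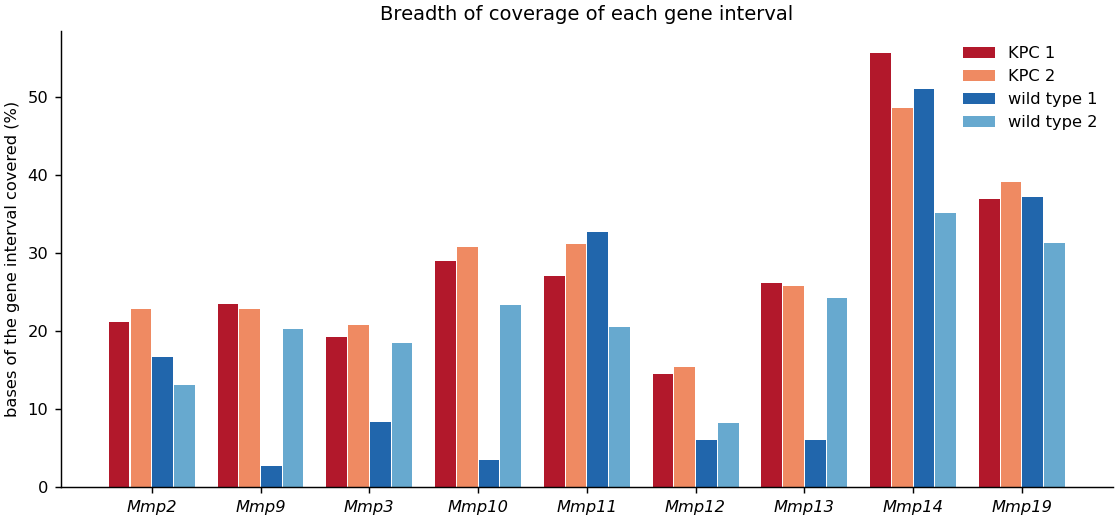
Percent of each gene interval, introns included, covered by at least 1 read in KPC 1, KPC 2, wild type 1 and wild type 2. Mmp9 and Mmp10 are covered over 2.70% and 3.50% in wild type 1 and over 20.2% or more in the other libraries, though wild type 2 has the fewest counts.

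Of the 14 other metalloproteinase genes, 11 were tested and 0 had an unadjusted p under 0.05, against 8.67% of all rows. Their median log2 fold change was -0.11. The smallest p were those of 2 membrane-type enzymes. Mmp16 stood at 3.20 and 2.88 CPM in KPC against 13.4 and 3.85 CPM in wild type (edgeR adjusted p = 0.590), and Mmp15 at 1.84 and 1.84 CPM in KPC against 3.39 and 2.55 CPM in wild type (edgeR adjusted p = 0.597). Of the 11 tested, 3 genes were higher and 3 lower in KPC without overlap, against 20.6% and 20.5% of all rows. Mmp16 and Mmp15 were among the lower ones. Mmp17, also membrane-type and named after its values were seen, was among the higher ones, at 19.9 and 24.1 CPM in KPC against 14.1 and 17.1 CPM in wild type (edgeR adjusted p = 0.600). Mmp8, the neutrophil collagenase gene in the same run on chromosome 9, was looked at for its position after the values were seen. It had 282 and 870 counts in KPC 1 and KPC 2, against 0 and 53 in wild type 1 and wild type 2. In CPM these were 4.79 and 12.8 against 0 and 2.37 (edgeR adjusted p = 0.669). The 0 allows up to 0.0571 CPM (3 counts). Mmp1a, Mmp7, Mmp20, Mmp27 and Mmp1b of that run had at most 68 counts in any library.

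Of the genes whose products activate the proenzymes, 6 of 7 tested had a positive log2 fold change (median 0.45), and 0 passed over all rows. Of the 23046 tested rows, 11235 were positive. At an unadjusted p under 0.05 in edgeR, 3 activators were higher and 0 lower, against 4.73% and 3.94% of all rows. Plat, the tissue plasminogen activator gene, stood at 43.0 and 29.3 CPM in KPC against 17.03 and 15.6 CPM in wild type. Plau, the urokinase gene, stood at 138 and 184 CPM in KPC against 44.7 and 91.7 CPM in wild type. Furin, the convertase that cuts the Mmp11 and Mmp14 propeptides, stood at 80.9 and 72.2 CPM in KPC against 56.5 and 55.5 CPM in wild type. The groups did not overlap in these 3 genes. Of the 7 tested activators, 4 were higher and 1 lower in KPC without overlap, against 20.6% and 20.5% of all rows. With wild type 1 left out, the median over the activators was 0.22.

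Of the inhibitors and surface partners of the enzymes, 0 passed over all rows. Of 6 tested inhibitors 4 were negative (median -0.76), with 1 higher and 2 lower at an unadjusted p under 0.05. Of the 23046 tested rows, 11811 were negative, and 4.73% were higher and 3.94% lower at that level. Reck, a membrane-anchored inhibitor of Mmp2, Mmp9 and Mmp14, stood at 2.92 and 2.89 CPM in KPC against 12.3 and 4.34 CPM in wild type, and Tfpi2, a secreted Kunitz-type protease inhibitor, at 3.14 and 3.54 CPM in KPC against 6.92 and 17.2 CPM in wild type. A2m, which encodes a general protease trap, was at 0.697 and 3.51 CPM in KPC against 0.114 and 0.268 CPM in wild type. Of 8 partners 7 were negative (median -0.50), with 2 lower at an unadjusted p under 0.05, against 3.94% of all rows. Those were Itgav, an integrin subunit, at 52.5 and 55.7 CPM in KPC against 95.2 and 81.3 CPM in wild type, and Mrc2, a receptor that takes up cleaved collagen, at 67.9 and 125 CPM in KPC against 215 and 161 CPM in wild type. Without wild type 1 the median log2 fold changes were -0.46 over the inhibitors and -0.24 over the partners.

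Inducers of metalloproteinase transcription had 18 of 21 positive log2 fold changes (median 0.52), and 0 passed over all rows. Of the 23046 tested rows, 11235 were positive. At an unadjusted p under 0.05 in edgeR, 8 inducers were higher and 0 lower, against 4.73% and 3.94% of all rows. Without wild type 1 the median was 0.36. The 8 higher ones were the cytokine genes Il1b, Tnf and Osm, the AP-1 subunit gene Jund, the Ets family genes Ets2, Etv4 and Etv5, and the early response gene Egr1. Jund stood at 148 and 125 CPM in KPC against 101 and 90.0 CPM in wild type, and Ets2 at 43.9 and 33.4 CPM in KPC against 16.5 and 26.9 CPM in wild type. Osm, Tnf and Il1b were low everywhere, at most 1.83 CPM. Of the substrates, Spp1, the osteopontin gene, stood at 860 and 1050.2 CPM in KPC against 29.7 and 310 CPM in wild type (edgeR adjusted p = 0.601).

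Markers of other cell types moved with some of these values. All 17 macrophage markers were higher in KPC without overlap, against 20.6% of all rows. At an unadjusted p under 0.05 in edgeR, 16 were higher, against 4.73% of all rows. Without wild type 1 their median log2 fold change was 2.26. Their summed level was 1217 and 2486 CPM in KPC, against 102 and 317 CPM in wild type 1 and wild type 2, the same order of libraries as Mmp12 and Mmp2, and none was at 0 in any library. Among the defining markers, Csf1r stood at 27.7 and 45.3 CPM in KPC against 10.1 and 17.9 CPM in wild type, and Cd68 at 18.8 and 28.9 CPM in KPC against 1.08 and 5.23 CPM in wild type. Of 12 epithelial markers 5 were higher in KPC without overlap, against 20.6% of all rows, and 1 was at 0 in wild type 1. Their sum was 1199 and 460 CPM in KPC, against 32.0 and 440 CPM in wild type 1 and wild type 2, which sets wild type 1 apart as Mmp3, Mmp9, Mmp10 and Mmp13 do. Krt8 stood at 490 and 85.1 CPM in KPC against 0.399 and 146 CPM in wild type. In KPC 1, Krt8 and Krt18 (465 CPM) made up most of the sum. Cdh1 stood at 81.5 and 29.4 CPM in KPC against 0.818 and 18.9 CPM in wild type. Krt19 stood at 64.7 and 34.9 CPM in KPC against 5.23 and 20.1 CPM in wild type. Epcam went the other way between the KPC libraries, at 5.41 and 18.1 CPM, against 0.190 and 13.6 CPM in wild type. The neutrophil marker Ly6g had 0 counts in KPC 1, wild type 1 and wild type 2. Summed neutrophil markers were at 51.4 and 5.51 CPM in KPC, against 2.44 and 5.05 CPM in wild type, and S100a8 made up 48.1 CPM of the sum in KPC 1. S100a9 stood at 0.221 and 0.0295 CPM in KPC against 0 and 0.224 CPM in wild type. Csf3r stood at 0.731 and 1.00 CPM in KPC against 0.799 and 0.984 CPM in wild type. At an unadjusted p under 0.05, 2 of 12 epithelial, 1 of 7 neutrophil and 0 of 12 fibroblast markers were higher and none of them lower. At that level 8 of 12 endothelial and 6 of 6 endocrine markers were lower. Of all rows, 4.73% were higher and 3.94% lower. The part of macrophage and epithelial RNA in the metalloproteinase values was not tested.

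**Figure D5:**
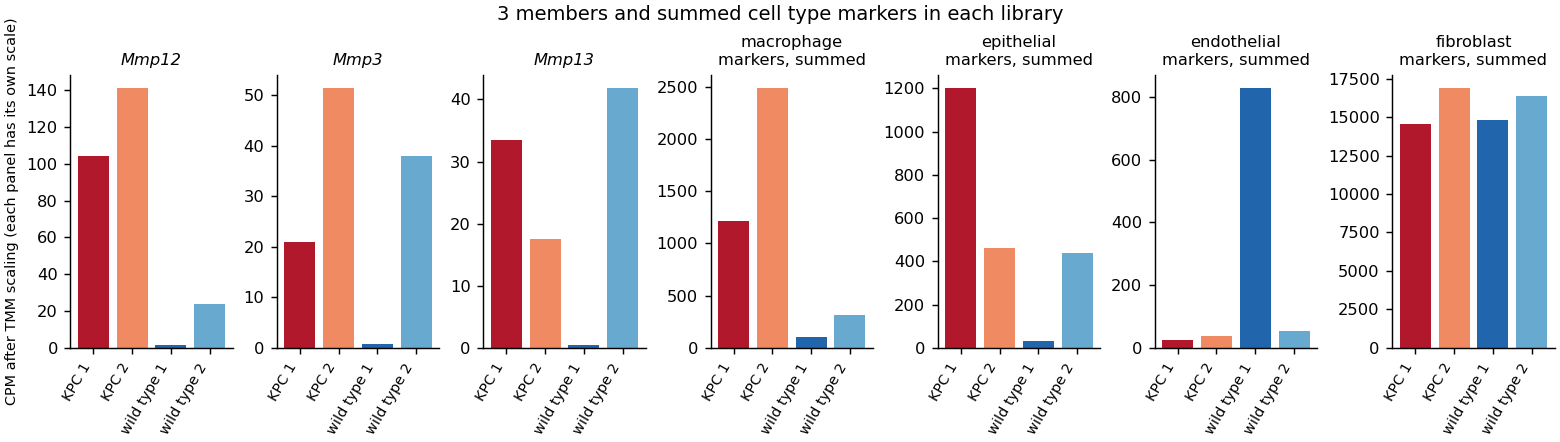
CPM of Mmp12, Mmp3 and Mmp13 and of the summed macrophage, epithelial, endothelial and fibroblast markers in KPC 1, KPC 2, wild type 1 and wild type 2, each panel on its own scale from 0. Mmp12 and the macrophage sum are lowest in wild type 1 and highest in KPC 2, the endothelial sum is high in wild type 1 alone (827 CPM), and the fibroblast sum varies from 14583 to 16868 CPM.

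For the 3 members whose groups did not overlap, the genes with the most similar profile were sought among 10030 protein-coding genes with a mean of at least 5 CPM, by the Euclidean distance of centred log2 CPM over the 4 libraries. Nearest to Mmp12 were Csf2rb2, a cytokine receptor subunit gene (distance 0.12), the Fc receptor gamma chain gene Fcer1g (0.23), which is a member of the macrophage list, and the epithelial gene Lad1 (0.41). Fcer1g stood at 15.3 and 25.1 CPM in KPC against 0.190 and 3.49 CPM in wild type. Nearest to Mmp2 were the Wnt receptor gene Fzd1 (0.21), Syngr1 (0.24) and Fndc1 (0.26), and nearest to Mmp14 were the small heat shock protein gene Hspb8 (0.03), Spg21 (0.04) and the cell cycle gene Cks1b (0.06). A profile over 4 libraries is short, and the likeness was not tested.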

How the data were processed

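Read counts per gene interval of 4 libraries, 2 KPC and 2 wild type, were analysed. Per the labels' protocols, poly-A RNA from 0.6 µg of total RNA (RIN above 7) was made into libraries with 13 PCR cycles and sequenced as single reads of 50 bases. Per the submitters' processing notes, TopHat2 2.0.3, SAMtools 0.1.18, bedtools and FastQC 0.10.1 were used with mm10. The counting tool, its strand setting and its handling of reads with several matches are not given in the sources used here. The authors deposited, per library, a whole-number count for each interval, introns included, beside the interval length, its covered bases and their fraction. Mitochondrial rows held 0 counts. The deposited start equals the 1-based GENCODE M21 gene start in 27186 of 35782 rows with a matching symbol, so it is printed unchanged. Rows with 1 count mostly covered 37 bases, the word length used for shared sequence.

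edgeR 4.0.16 (R 4.3.3) was run on rows passing filterByExpr (minimum count 10; 23046 rows) with TMM factors (0.988 to 1.02) and the two-sided quasi-likelihood test without a replicate block, adjusted by Benjamini-Hochberg over all rows. SE is the unshrunk log2 fold change over the root of F; intervals are 95%. An exact permutation of 2 against 2 libraries has 6 arrangements and cannot go below p = 0.333. A chi-square comparison of counts gave 80.8 per degree of freedom between the KPC libraries and 155 between the wild type libraries, so none repeats another. Poisson intervals and the 3-count floor cover counting error only. Alternatives were other size factors and filters, DESeq2 1.42.0, voom (limma 3.58.1), the block, a threshold of 0.1 and each library left out. The fits were tested on simulated data in which 200 rows were changed by known folds. No simulated library stood apart as wild type 1 does, so the simulation does not show how the fits behave in that case.

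The members, the 15 gene lists and the rule for naming genes (list genes with an unadjusted p under 0.05, the 2 of smallest p where fewer have one, defining markers, and the 3 nearest profiles) were chosen with earlier results of these data known. Part of the result of the substrate list is not reported here. Adgre1 was matched through its older symbol. At an unadjusted p under 0.05, 1 of 4 tested acinar markers was higher and 0 lower. At that level 0 of 6 Schwann markers were higher and 4 lower, and 0 of 5 mesothelial markers passed. Of all rows, 4.73% were higher and 3.94% lower. Figures were drawn with matplotlib 3.10.9.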

Additional observations from a re-analysis of the deposited data

How the results depend on the processing

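The 9 members' fold changes were recomputed under 12 alternatives each, 108 values in all: 92 kept direction and side of the threshold, 7 passed it and 9 changed sign. DESeq2 called 627 rows (333 higher and 294 lower) and 1 member, Mmp2 (adjusted p = 0.0122, with 0.99996 as the highest over its alternatives). Leaving out single libraries moved the count of called rows between 0 and 835 and of called members between 0 and 6, both highest without wild type 2. Without wild type 1, 5 rows were called. The median over the members ran from 0.301 without wild type 1 to 5.60 without wild type 2, and was 2.99 with limma voom. Signs turned for Mmp3 (-0.0707), Mmp11 (0.11) and Mmp13 (-0.712) without wild type 1, for Mmp13 without KPC 1 (-0.265), and for Mmp19, near 0 throughout, without composition factors (0.00592), without a count filter (0.0217), with voom (0.00184), without KPC 1 (0.258) and without wild type 2 (0.214). Leaving out single libraries gave -0.0707 to 5.60 for Mmp3, -0.885 to 0.11 for Mmp11, -0.712 to 5.74 for Mmp13 and -0.317 to 0.258 for Mmp19. The cause of these turns was not tested beyond the libraries left out. Members higher at an unadjusted p under 0.05 numbered 1 in the reported fit, where 4.73% of all rows were, and 3 without a filter, with DESeq2 or with voom. The share of all rows at that level was not computed for these alternatives or for the replicate block, so their counts of members cannot be set against it. With the replicate number as a block, where 2 pairs are too few to show pairing (deviations correlate at 0.136), 0 rows and 0 members were called, the median was 2.17, Mmp3, Mmp9, Mmp10, Mmp12 and Mmp13 had log2 fold changes of 2.48, 3.20, 3.38, 4.33 and 2.17, and 2 members had an unadjusted p under 0.05. Counting precision is lowest for Mmp10 and Mmp9 in wild type 1, with 9 and 14 counts, though that library holds more counts in all than wild type 2.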

Other observations

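Genes of the lists tied to these enzymes that the naming rule did not pick were singled out after their values were seen. Il1a, an inflammatory cytokine gene, stood at 34.3 and 54.3 CPM in KPC, against 0.399 and 16.0 CPM in wild type 1 and wild type 2, low in the same library as Mmp3, Mmp9, Mmp10, Mmp12 and Mmp13. It did not pass edgeR's test (adjusted p = 0.682). Timp1, the inhibitor that binds Mmp9, stood at 764 and 1090 CPM in KPC against 413 and 2740 CPM in wild type, with wild type 2 the highest library. Lcn2, whose protein binds Mmp9, was at 0.561 and 1.80 CPM in KPC against 0.285 and 90.1 CPM in wild type. Eln, which encodes elastin, the substrate of Mmp12, was at 8.18 and 3.58 CPM in KPC against 138 and 3.53 CPM in wild type, high in wild type 1 alone.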
